A study of Mus musculus with 6 samples.

Results

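Integrins and laminins are the receptors and the matrix proteins by which endothelial cells hold on to their surroundings. Their genes were chosen with earlier results of these data known. All 37 genes named as integrin alpha, integrin beta or laminin chains were taken by their symbols from the 55401 listed genes. They comprised 18 integrin alpha, 8 integrin beta and 11 laminin genes, the latter being 5 alpha, 3 beta and 3 gamma chains. The RNA came from lymphatic endothelial cells (LECs) of the dura mater, sorted as LYVE-1+, PDPN+, CD31+ and CD45- cells. The wild-type male C57BL/6J mice had received an adeno-associated virus (AAV) in the cisterna magna at 4 weeks of age. The virus encoded mouse VEGF-C, the growth factor of lymphatic vessels, in the AAV-VEGF-C group. In the AAV-CTRL group it encoded a part of the VEGFR3 receptor that does not bind VEGF-C, fused to immunoglobulin. Both groups thus carried a virus. The comparison asks which genes differ in dural LECs after VEGF-C overexpression. There were 3 libraries per group, numbered by experiment, and each held cells from 10 to 12 pooled meninges, so the spread is between pools and not between mice. The interval between injection and collection is not given for these libraries in the sources used here.

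An integrin is a pair of an alpha and a beta chain, and the pair sets what it binds: laminins, collagens, proteins with the Arg-Gly-Asp (RGD) motif, or ligands on other cells. The chain encoded by Itgb1 pairs with most alpha chains outside the leukocyte group. A laminin is a trimer of an alpha, a beta and a gamma chain and builds the sheet of the basement membrane, which is thin and interrupted around lymphatic capillaries. In lymphatic endothelium the Itga9 chain is known from valves, and integrins with the Itgb1 chain are known to act beside VEGFR3.

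The libraries differed in depth and purity in ways that touch every value. Total estimated counts ranged from 6530269 to 12399498 for AAV-CTRL and only from 564475 to 3261935 for AAV-VEGF-C, without overlap. All 9 LEC markers were present in every library, from Prox1 at 3.15 to 14.1 TPM to Ccl21a at 82.1 to 352 TPM, where TPM is the share of transcripts scaled to a fixed total, a level per transcript length. Their edgeR adjusted p ranged from 0.212 for Pecam1 to 0.997 for Lyve1. Pecam1 encodes CD31, which blood endothelial cells carry too, so not every gene of this list is specific to LECs. The 8 fibroblast markers summed to 1796 to 4111 TPM in AAV-CTRL and 406 to 1347 TPM in AAV-VEGF-C. These sums were above those of the LEC markers in each library (517 to 614 TPM and 167 to 350 TPM). The separation of the groups in TPM did not hold on TMM-scaled CPM, which are counts set to a common level between libraries. There the fibroblast sums overlapped, at 23620, 9867 and 10680 against 8548, 6208 and 10830. The LEC sums overlapped too, at 2574, 1756 and 1590 against 4189, 1281 and 783. Leukocyte markers summed to 27.3 and 15.5 TPM in the 2 libraries of experiment 1 and to 733 to 2351 TPM in the other 4. Genes that dural cells should not use (1935 olfactory, vomeronasal and taste receptor, keratin-associated and defensin genes) had a 95th percentile of 0.112 to 0.169 TPM in AAV-CTRL and of 1.002 to 1.46 TPM in AAV-VEGF-C.

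Between AAV-VEGF-C and AAV-CTRL, 1 of the 34 tested integrin and laminin genes fell, Itgb1, and 1 rose, Itga2b, the alpha chain of the platelet fibrinogen receptor. The test was edgeR's quasi-likelihood test with Benjamini-Hochberg adjustment over all 17459 tested genes, and a gene was called at an adjusted p under 0.05. Of all tested genes, 0.659% were lower and 10.5% were higher. The other 32 tested members did not pass, and Itgad, Itgae and Itgb6 had too few counts to be tested. The members' median log2 fold change was -0.23, beside -0.0037 over all tested genes, and it was 0.13 (against 0.33 for all tested genes) under scaling on the 2000 genes of highest abundance. The tools differed in how many members they called. With the experiment as a block, 4 members were lower (2.07% of all genes) and 1 higher (12.8%), the added ones being Itga1, Itgav and Lama2. DESeq2, the study's own tool, called 4 lower (1.6%) and 3 higher (18.6%), voom with sample weights 2 lower (1.53%) and 4 higher (13.6%), and edgeR without a filter on low counts 6 lower (2.64%) and 3 higher (21.1%). Itgb1 was lower and Itga2b higher in each of these. In these sorted populations, fewer cells of a type and less RNA per cell cannot be told apart.

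The sign of the fold change went with the level of the gene. Of the 16 members whose TPM averaged 5 or more, 14 had a log2 fold change below 0, with a median of -0.69, whereas of the 18 members under 5 TPM 12 were above 0, with a median of 0.66. The same split was present among all tested genes, with medians of -0.41 for the 7234 genes of at least 5 TPM and 0.52 for the 10225 genes below. The filter on low counts was relative to library size, so the shallower AAV-VEGF-C libraries met it with fewer counts. Itgax and Lamb3 passed only through them, Lamb3 on 3, 8 and 18 counts against 11, 6 and 25 in AAV-CTRL. The positive sign among low members was thus partly set by that selection, which acted on the 10225 genes as well. How much of the split it made was not tested. The integrin alpha, integrin beta and laminin members had medians of -0.21, -0.07 and -0.60. The abundant chains were thus on the side of lower values together with most abundant genes, as the plot of fold changes shows.

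**Figure D1:**
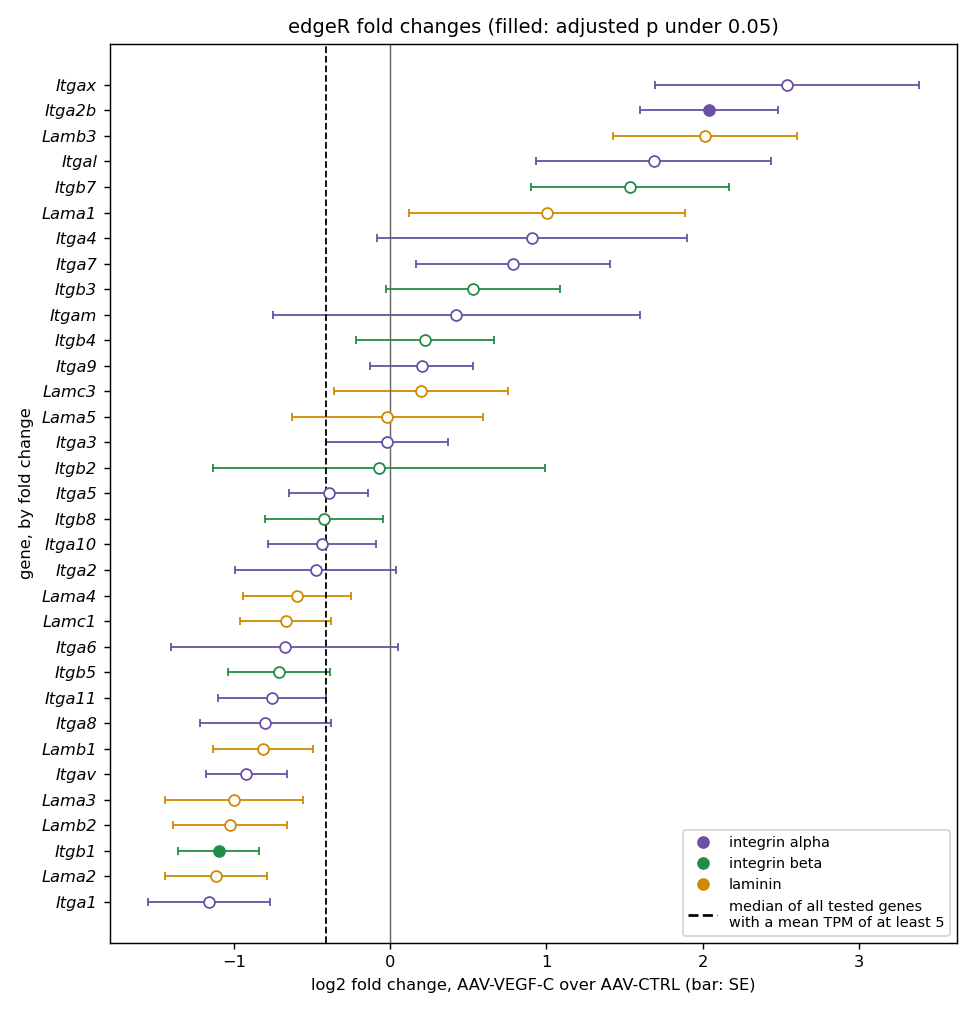
log2 fold change of AAV-VEGF-C over AAV-CTRL (x axis) for the tested members shown (y axis), coloured by family, with bars for the standard error from edgeR and filled points for an adjusted p under 0.05. Itgb1 at -1.10 and Itga2b at 2.04 are the filled points, and the dashed line marks -0.41, the median of all tested genes averaging 5 TPM or more.

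Itgb1, the common partner of the alpha chains for laminin, collagen and fibronectin, was counted 1712, 2255 and 5214 times in the AAV-CTRL libraries and 63, 193 and 499 times in the AAV-VEGF-C ones. In TPM these were 56.3, 64.7 and 117 against 9.81, 18.1 and 23.3. On TMM-scaled CPM (scaled CPM), which sets the libraries to a common level, they were 275, 287 and 353 against 146, 138 and 144. All AAV-VEGF-C libraries were below all AAV-CTRL libraries on both scales. The log2 fold change was -1.10 ± 0.26 (SE, n = 3 per group, adjusted p = 0.0358), and -1.09 with the experiment as a block (adjusted p = 0.0303). Without any single library it stayed between -1.22 and -1.10 with an adjusted p of 0.0568 to 0.105, and scaled on the 2000 most abundant genes it was -0.76 (adjusted p = 0.132). After thinning all libraries to the depth of the smallest it was -0.41 ± 0.36 (adjusted p = 0.9998). Among the 649 tested genes within 1.5-fold of its mean level, the median log2 fold change was -0.53 and 9.55% of the genes had a lower value. Itgb1 lies on chromosome 8 (128685654 to 128733200, plus strand, GRCm38) and overlaps no other annotated gene.

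Itgb5, which pairs with Itgav in a receptor for vitronectin, was as abundant as Itgb1 in AAV-CTRL, at 58.6, 69.9 and 85.1 TPM, against 9.01, 27.6 and 36.6 TPM in AAV-VEGF-C. These groups did not overlap either, but the log2 fold change of -0.71 ± 0.32 did not pass (adjusted p = 0.199). The groups of Itgb1 and Itgb5 overlapped in AAV-CTRL, with means of 79.2 ± 32.6 and 71.2 ± 13.3 TPM (SD, n = 3), so their order was not resolved. Itgb4, the beta chain of hemidesmosomes, had 1.42, 3.71 and 9.08 TPM against 3.13, 4.14 and 2.48 TPM, with groups that overlapped (log2 fold change 0.22 ± 0.44, adjusted p = 0.790). Itgb8, which pairs with Itgav and binds latent TGF-beta, had 2.43, 1.49 and 3.32 TPM against 0.64, 1.09 and 1.66 TPM, overlapping as well (log2 fold change -0.42 ± 0.38, adjusted p = 0.507). Itgb3, the partner of Itgav and Itga2b, ranged from 0.55 to 2.38 TPM over the 6 libraries, and Itgb6, an epithelial chain, had 1 to 12 counts.

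Among the RGD receptors, Itgav, the alpha chain for vitronectin, had 17.8, 15.4 and 22.7 TPM in AAV-CTRL and 3.69, 8.43 and 8.28 TPM in AAV-VEGF-C. Its scaled CPM of 125, 106 and 112 against 67.0, 49.5 and 65.6 did not overlap. The log2 fold change was -0.92 ± 0.26, which missed the threshold without the block (adjusted p = 0.0621) and passed it with the block (adjusted p = 0.0484). Itga5, the fibronectin receptor chain, had 1.33 to 14.4 TPM and Itga8, the nephronectin receptor chain, 1.02 to 6.89 TPM over the 6 libraries, and their log2 fold changes were -0.39 ± 0.25 and -0.80 ± 0.42 (adjusted p = 0.343 and 0.255).

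Itga2b was the only member that edgeR called higher, and the call depended on the unit. Its counts were 32, 26 and 53 against 11, 18 and 48, which gave 5.14, 3.31 and 3.59 against 25.4, 12.9 and 13.8 scaled CPM and a log2 fold change of 2.04 ± 0.44 (adjusted p = 0.0275, or 0.0194 with the block). In TPM the groups overlapped, at 5.07, 2.96 and 4.42 against 3.09, 4.38 and 5.998, and the limma test on log2(TPM + 1) gave 0.08 (adjusted p = 0.913). Each CPM of Itga2b was worth 1.03, 0.89 and 1.03 TPM in the AAV-CTRL libraries and 0.16, 0.35 and 0.41 TPM in the AAV-VEGF-C libraries. The latter came to 0.31 of the former, beside 0.55 in the median tested gene. The call was kept without AAV-CTRL 1 (adjusted p = 0.0435) and lost without any other single library (adjusted p up to 0.0913) and without experiment 1 in both groups, an alternative chosen after seeing the data (adjusted p = 0.0551). Of the 6 platelet markers 3 were tested, and 1 of these, Treml1, was called higher, as were 10.5% of all tested genes. Its log2 fold change was 3.19 (adjusted p = 0.0400), at 0.19 to 0.26 TPM against 0.73 to 1.03 TPM. Its AAV-VEGF-C values lay below the 95th percentile of the silent families in each of those libraries (1.46, 1.27 and 1.002 TPM). Treml1 passed the filter on low counts only through the AAV-VEGF-C libraries, so its rise was partly set by that selection. Gp1ba stood at 2.74 on the log2 scale (adjusted p = 0.161), Gp9 was not tested, and Pf4, at 0.72, 168 and 116 against 6.94, 57.1 and 66.5 TPM, did not pass. Like the sum of the leukocyte markers, Pf4 was lowest in experiment 1 of either group. Ppbp and Gp1bb were at or below 0.67 TPM in every library. Itga2b lies on chromosome 11 (102453297 to 102470122, minus strand) and overlaps a small gene, Gm23563, on its own strand.

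The laminin-binding alpha chains are Itga3, Itga6 and Itga7. Itga6 had 2.38, 11.6 and 25.5 against 1.85, 6.38 and 5.35 TPM, with a log2 fold change of -0.68 ± 0.73 (adjusted p = 0.589). The lowest value of each group was in experiment 1. There also the blood endothelial markers had their lowest sums in TPM, 91.2 and 49.2 against 93.4 to 754 in the other libraries. On TMM-scaled CPM the sum was 636 in AAV-VEGF-C 1 and 620 in AAV-VEGF-C 3, so this order did not hold in AAV-VEGF-C. The part of blood endothelial cells in the Itga6 values was not tested. Itga3 had 4.67, 7.32 and 13.5 against 3.98, 2.81 and 2.30 TPM, without overlap, yet its scaled CPM overlapped and its log2 fold change was -0.02 ± 0.39. Itga7, a chain of muscle and mural cells, ranged from 0.31 to 3.81 TPM.

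The collagen receptor chains are Itga1, Itga2, Itga10 and Itga11. Itga11, a chain known from fibroblasts, had the highest mean TPM of the integrin alpha genes in AAV-CTRL, at 24.7, 19.5 and 31.8 TPM, although Itgam and Itga9 exceeded it in AAV-CTRL 2, against 4.55, 4.87 and 13.0 TPM in AAV-VEGF-C. The groups did not overlap, and the log2 fold change was -0.76 ± 0.35 (adjusted p = 0.202). Itga1 had 7.004, 7.60 and 19.6 against 0.88, 3.43 and 3.73 TPM, with a log2 fold change of -1.16 ± 0.39 that passed only with the block (adjusted p = 0.102, and 0.0432 with the block). Fibroblast markers lay on the same side: all 8 had fold changes below 0, with a median of -1.26. Of these Dcn (-1.69, adjusted p = 0.0287) and Ogn (-1.85, adjusted p = 0.0313) fell. That side was not particular to fibroblasts. All 8 blood endothelial markers (median -1.18) and 7 of 8 mural cell markers (median -0.62) were below 0 too. So were 7 of 11 tested leukocyte and 2 of 7 Schwann cell markers. The part of any of these cell types in these values was not tested. Itga2, the platelet and epithelial collagen receptor chain, ranged from 0.08 to 1.62 TPM, and Itga10, the cartilage one, from 0.37 to 4.48 TPM.

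Itga9 and Itga4 form a pair of related chains. Itga9, the chain of lymphatic valves, had 13.1, 25.1 and 16.4 TPM in AAV-CTRL and 3.16, 14.4 and 7.54 TPM in AAV-VEGF-C. Its scaled CPM overlapped, at 92.0, 87.8 and 69.3 against 129, 97.5 and 62.7, and the log2 fold change was 0.20 ± 0.33 (adjusted p = 0.737). Of the 5 alpha chains with the highest TPM in AAV-CTRL it was, with Itgam, one whose log2 fold change lay above 0, although it ranged from -0.12 to 0.34 when single libraries were left out. Of the 9 LEC markers 4 had fold changes below 0, with a median of 0.0062. The 9 ranged from -1.06 for Pecam1, which blood endothelial cells share, to 0.79 for Prox1. Itga4, the VCAM1 receptor chain of leukocytes, had 0.06, 5.66 and 4.06 against 1.47, 5.40 and 4.03 TPM.

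The leukocyte integrins varied widely between the experiments within each group. Itgam, the alpha chain of myeloid cells, was counted 14, 1835 and 1012 times in AAV-CTRL and 27, 334 and 358 times in AAV-VEGF-C. That was 0.27, 32.1 and 13.8 against 2.52, 21.3 and 11.1 TPM. Its partner Itgb2 had 0.90, 26.5 and 10.5 against 0.44, 10.6 and 8.48 TPM. Both were lowest in experiment 1 of either group, and their log2 fold changes of 0.42 ± 1.18 and -0.07 ± 1.06 had adjusted p of 0.858 and 0.979. The leukocyte markers summed to 27.3, 2351 and 1511 against 15.5, 1087 and 733 TPM, with Ptprc, the gene of CD45, at 0.12 and 0.34 TPM in experiment 1 and at 9.81 to 25.7 TPM in the other 4 libraries. Counts of Itgam were also uncertain because 66.8% of its 100-base windows occurred in the transcripts of an overlapping gene, Gm49368.

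Itgal, the lymphocyte partner of Itgb2, had 0.49, 1.78 and 1.16 TPM in AAV-CTRL and 12.1, 2.57 and 2.58 TPM in AAV-VEGF-C, without overlap. The value of 12.1 TPM rested on 16 estimated counts, and the log2 fold change of 1.69 ± 0.75 did not pass (adjusted p = 0.190). Itgax, the dendritic cell chain, and Itgb7, the gut homing chain, had log2 fold changes of 2.54 ± 0.85 and 1.54 ± 0.64 (adjusted p = 0.0986 and 0.163), on 1 to 29 and 1 to 37 counts per library. The T cell marker Cd3e had 0, 0.59 and 0 against 1.01, 0.56 and 0.84 TPM. The B cell marker Cd79a had 0.87, 0.16 and 0.46 against 1.28, 0.71 and 0.96 TPM. Their log2 fold changes of 3.31 and 2.07 did not pass (adjusted p = 0.196 and 0.204). Their AAV-VEGF-C values lay below the 95th percentile of the silent families in each of those libraries (1.46, 1.27 and 1.002 TPM). Itgad and Itgae, further leukocyte chains, had at most 19 and 7 counts.

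**Figure D2:**
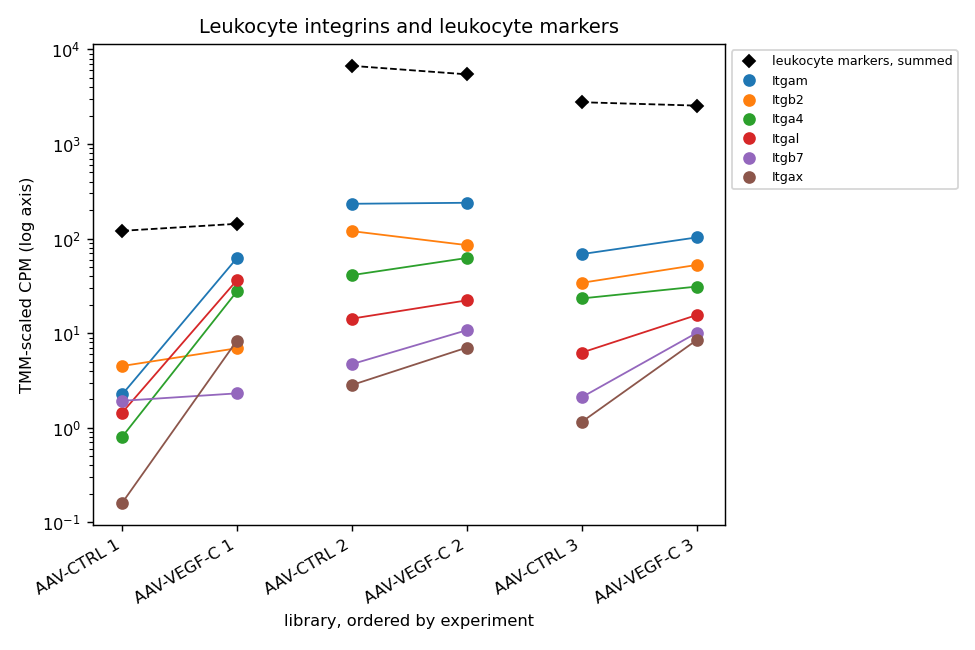
TMM-scaled CPM on a log axis (y) in the 6 libraries ordered by experiment (x), for 6 leukocyte integrin genes and for the sum of the leukocyte markers (black diamonds), with lines joining the AAV-CTRL and the AAV-VEGF-C library of an experiment. The marker sum is 121 and 143 in experiment 1 and 2546 to 6703 in the others, and Itgam is at 2.25 in AAV-CTRL 1 and at 233 in AAV-CTRL 2.

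The laminin genes were led by Lamb2, with 89.1, 53.7 and 106 TPM in AAV-CTRL and 13.6, 17.6 and 33.4 TPM in AAV-VEGF-C. Lamb2 encodes a beta chain of vessel and nerve basement membranes. Its scaled CPM of 861, 467 and 519 against 280, 244 and 383 did not overlap, and the log2 fold change was -1.02 ± 0.36 (adjusted p = 0.115, and 0.0778 with the block). Lamb1, the more widespread beta chain, had 7.69, 6.15 and 18.7 against 1.35, 2.62 and 4.92 TPM, again without overlap (log2 fold change -0.81 ± 0.32, adjusted p = 0.149). Both genes overlap no other annotated gene, Lamb2 on chromosome 9 (108479736 to 108490530, plus strand).

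Of the laminin alpha chains, Lama4 is the general chain of endothelial basement membranes and Lama2 that of muscle and connective tissue cells. Lama4 had 26.8, 15.4 and 31.9 TPM against 5.03, 7.54 and 9.85 TPM, with scaled CPM that overlapped (log2 fold change -0.60 ± 0.34, adjusted p = 0.297). Lama2 had 24.6, 14.6 and 33.4 TPM against 3.07, 6.39 and 8.50 TPM, with no overlap on either scale. Its log2 fold change was -1.11 ± 0.33 (adjusted p = 0.0698) and -1.06 with the block (adjusted p = 0.0462). Lamc1, the gamma chain of most laminins, had 20.7, 17.8 and 27.1 against 4.08, 5.84 and 9.42 TPM, without overlap (log2 fold change -0.67 ± 0.29, adjusted p = 0.180).

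Lama3 and Lamb3 are chains of the laminin of epithelial anchorage. Lamb3 stood at 0.18, 0.16 and 0.38 TPM against 1.12, 3.93 and 1.28 TPM, without overlap, on 6 to 25 against 3 to 18 counts (log2 fold change 2.02 ± 0.59, adjusted p = 0.0703). Lama3 stood at 2.51, 2.30 and 7.75 against 0.26, 1.42 and 1.45 TPM (log2 fold change -0.999 ± 0.44, adjusted p = 0.188). Neither gene was called, so no contrast between these chains is drawn. The 1.12 TPM of Lamb3 in AAV-VEGF-C 1 lay below the 95th percentile of the silent families there (1.46 TPM). Its TPM per CPM in AAV-VEGF-C was 2.26 of that in AAV-CTRL, beside 0.55 in the median tested gene. Lamb3 passed the filter on low counts only through the AAV-VEGF-C libraries, so its positive sign was partly set by that selection. Lama1, Lama5 and Lamc3, at 0.10 to 7.36 TPM, had log2 fold changes of 1.002 ± 0.88, -0.02 ± 0.61 and 0.20 ± 0.56. Lama5, the other endothelial laminin alpha chain, thus showed no resolved difference.

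**Figure D3:**
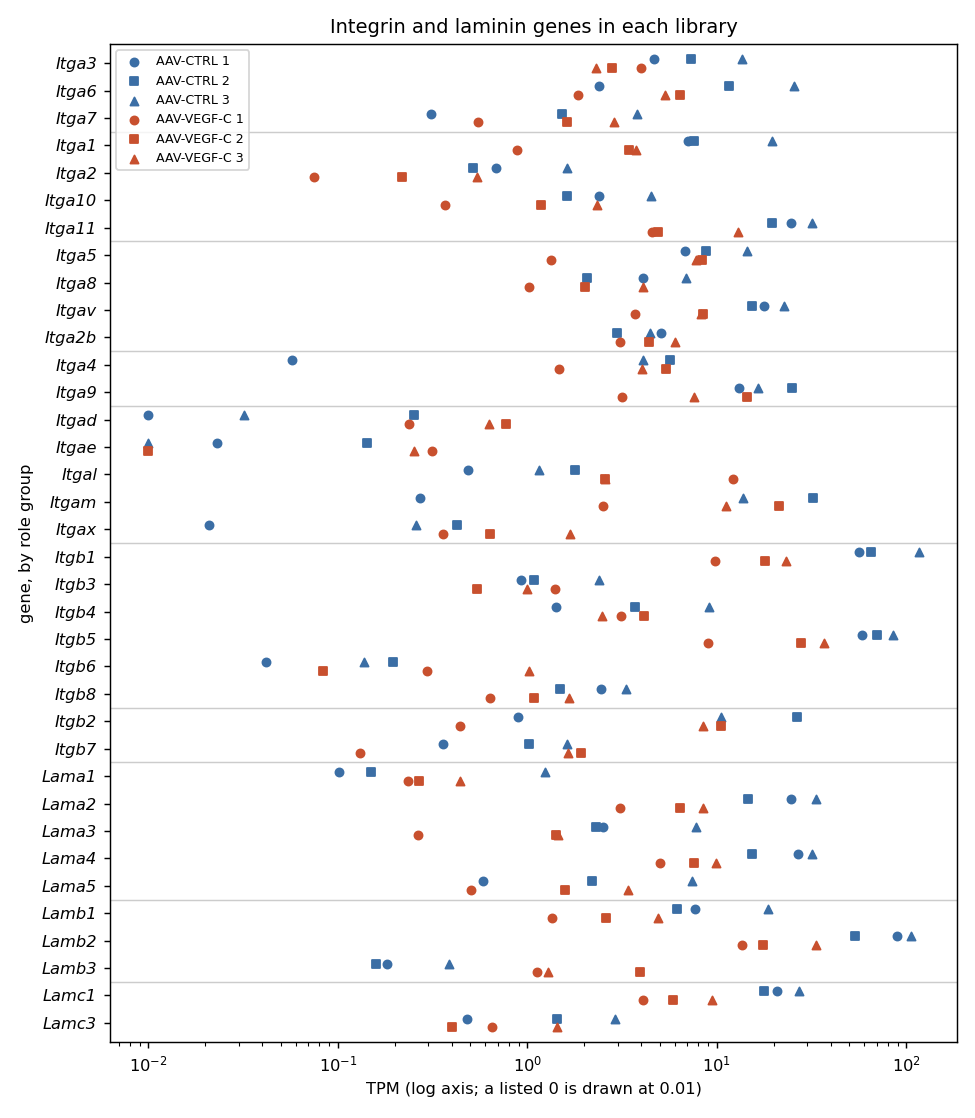
TPM on a log axis (x) for the integrin and laminin genes shown (y, separated by role), with blue points for the 3 AAV-CTRL libraries, red points for the 3 AAV-VEGF-C libraries and the symbol giving the experiment. Lamb2, Itgb1 and Itgb5 lie furthest right in AAV-CTRL, at 53.7 to 117 TPM, and their AAV-VEGF-C points at 9.01 to 36.6 TPM lie to the left of all of those.

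In TPM, the groups did not overlap for 14 of the 34 tested members, 12 lower and 2 higher in AAV-VEGF-C, where 36.4% and 12.8% of all tested genes did the same. Among all genes of at least 5 TPM the share that was lower without overlap was 61.4% in TPM and 33.2% in scaled CPM. On scaled CPM, 10 members were lower and 5 higher without overlap, against 17.6% and 22.3% of all tested genes. The 12 lower members included 6 of the 11 tested laminin genes, 4 of the 16 integrin alpha genes and 2 of the 7 integrin beta genes.

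Summed over each family, the highest TPM of an AAV-VEGF-C library lay under the lowest of an AAV-CTRL library. The same held for 61.4% of all tested genes averaging 5 TPM or more. For the integrin alpha genes these 2 values were close, at 88.8 and 89.7 TPM. The integrin alpha genes summed to 140 ± 47.5 TPM in AAV-CTRL and 71.5 ± 26.0 TPM in AAV-VEGF-C (SD, n = 3). The corresponding sums were 173 ± 54.0 and 55.0 ± 26.8 TPM for the integrin beta genes. Laminin alpha genes summed to 57.0 ± 23.6 and 16.7 ± 7.29 TPM, laminin beta genes to 94.0 ± 32.6 and 26.6 ± 11.9 TPM, and laminin gamma genes to 24.1 ± 5.34 and 9.46 ± 4.85 TPM. Each had a two-sided exact permutation p of 0.1, the smallest that 3 against 3 libraries allow, also after adjustment over the 5 sums. On scaled CPM the integrin alpha sums overlapped, at 828 ± 115 against 700 ± 74.9 (exact permutation p = 0.2), and the other 4 sums did not.

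The composition of each family within a library does not depend on the scaling between libraries. Among beta chains, Itgb1 made up 46.6%, 38.4% and 50.95% of the summed TPM in AAV-CTRL, against 39.5%, 28.2% and 30.6% after VEGF-C, a mean of 45.3% ± 6.38 against 32.7% ± 5.94 (SD, n = 3), with groups that overlapped (unpaired exact permutation p = 0.2) and a lower share in 3 of 3 experiments. The share of Itgb5 was 42.4% ± 5.65 against 42.5% ± 5.94, and that of Itgb2 ranged from 0.74% to 16.5%. Lamb2 made up 51.5%, 46.6% and 44.7% of laminin TPM against 43.9%, 35.9% and 42.7%, without overlap (exact permutation p = 0.1). Taken from counts, its shares of 48.4%, 42.8% and 35.55% against 32.8%, 34.55% and 41.6% overlapped (exact permutation p = 0.2). Lama4 held 14.1% ± 1.20 against 14.8% ± 1.90, Lama2 13.7% ± 0.85 against 11.3% ± 1.62 and Lamc1 12.9% ± 2.16 against 12.4% ± 0.69.

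**Figure D4:**
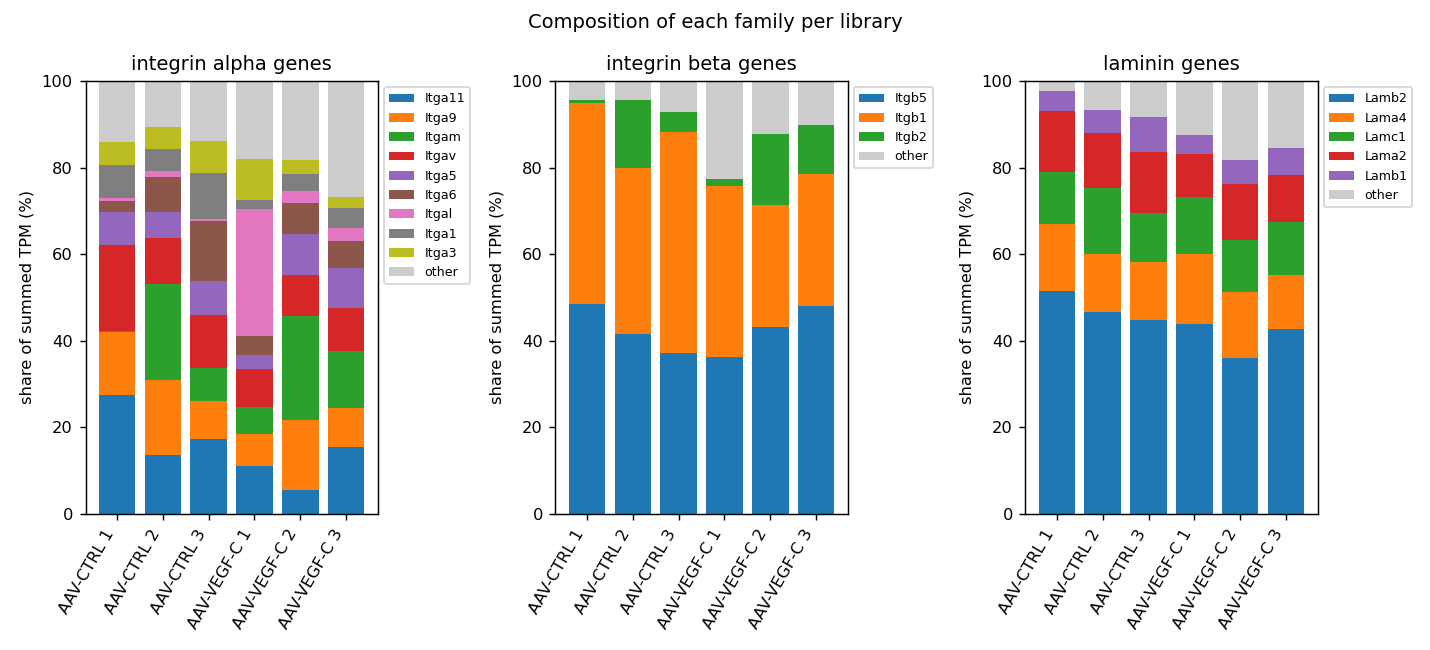
Stacked bars of the share of summed TPM in percent (y) in each of the 6 libraries (x) for integrin alpha, integrin beta and laminin genes, with genes whose mean share is under 5% joined as other. Itgb5 and Itgb1 fill most of the beta bars and Lamb2 is the largest part of each laminin bar, at 35.9% to 51.5%, whereas the alpha bars differ more, with Itgal at 29.2% in AAV-VEGF-C 1.

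Among alpha chains no gene led in every library. Itgav made up 14.2% ± 4.87 against 9.40% ± 0.49 and Itga1 7.91% ± 2.69 against 3.48% ± 1.20, both lower without overlap. Itgal made up 0.80% ± 0.38 against 11.7% ± 15.1, a mean set by its 29.2% in AAV-VEGF-C 1. Itgam ranged from 0.30% to 24.0%. Each of the shares that did not overlap had an exact permutation p of 0.1, and over the 17 shares tested the lowest adjusted p was 0.425.

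How far a member stood above the level of silent genes differed by group. In AAV-CTRL, 31, 37 and 34 of the 37 members were above the 95th percentile of the silent families of their library, and in AAV-VEGF-C 16, 27 and 32 were. In all 6 libraries 15 members were above it, among them Itgb1, Itgb5, Itgb4, Itgav, Itga9, Itga11, Lamb2, Lama2, Lama4 and Lamc1. A further 16 were above it in each AAV-CTRL library but not in each AAV-VEGF-C library. At least 3 counts, the limit that a count of 0 allows, were present for 33 to 36 members in AAV-CTRL and 33 to 37 in AAV-VEGF-C. After random thinning of each library to 564475 counts, the smallest depth, this held for 23 to 29 and 33 to 35 members.

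The intracellular machinery of integrin adhesion was read from a list of 31 genes, all tested. Of these, 1 rose, Fermt1, a kindlin of epithelial cells (log2 fold change 4.63, adjusted p = 0.0263), on 0 to 2 counts in AAV-CTRL and 2 to 16 in AAV-VEGF-C, where 10.5% of all tested genes were higher and 0.659% lower. Its 0.17, 0.33 and 0.46 TPM in AAV-VEGF-C lay below the 95th percentile of the silent families in each of those libraries (1.46, 1.27 and 1.002 TPM). Fermt1 passed the filter on low counts only through the AAV-VEGF-C libraries, so its rise was partly set by that selection. The 1 that fell was Lims1, which encodes PINCH, a partner of integrin-linked kinase, at 14.5, 12.4 and 21.9 against 4.14, 5.84 and 5.51 TPM (log2 fold change -0.96, adjusted p = 0.0497), a call also lost on leaving out each library in turn. In all, 24 of the 31 had fold changes below 0, as did 5495 of the 7234 tested genes averaging 5 TPM or more. The list's median was -0.50, and it was -0.18 with the 2000-gene scaling and 0.016 after thinning. The most abundant were Tln1, the talin that activates integrins (137 ± 33.5 against 58.4 ± 32.9 TPM, log2 fold change -0.46, adjusted p = 0.455), Tns1, a tensin (log2 fold change -0.21), and Actn4, an actinin (log2 fold change -0.57). With the block Lims1 missed the threshold (adjusted p = 0.0539), and Parva and Fermt2, further adaptors of the same complex, fell (Parva and Fermt2 adjusted p = 0.0333 and 0.0327). In that fit 2.07% of all tested genes were lower, and 4.64% of those averaging 5 TPM or more.

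Of 25 genes for other basement membrane proteins and integrin ligands, 24 were tested. With edgeR 1 fell, Sparc, a collagen-binding matrix protein, at 283, 214 and 480 against 31.8, 58.1 and 102 TPM (log2 fold change -1.39 ± 0.33, adjusted p = 0.0373). Of all tested genes 0.659% were lower, and 1.45% of those averaging 5 TPM or more. The call was lost on leaving out each library in turn, after thinning, with library size alone and with the 2000-gene scaling. Values were below 0 for 23 of the 24, with a median of -0.63, beside 5495 of 7234 and -0.41 for all tested genes averaging 5 TPM or more. Under the 2000-gene scaling these medians were -0.29 and -0.076. Thbs1, for thrombospondin, and Fn1, for fibronectin, the next most abundant ligands, had log2 fold changes of -0.84 ± 0.50 and -0.65 ± 0.38 (adjusted p = 0.310 and 0.301).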

How the data were processed

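Bulk RNA-seq of 3 AAV-CTRL and 3 AAV-VEGF-C pools of sorted dural LECs was analysed from 2 deposited gene tables. The estimated counts per gene were deposited as made by the authors, not normalized, and were rounded here before testing. The TPM values were likewise deposited by the authors, per transcript length and scaled within each library. Libraries were made with a stranded total RNA kit for low input, and the submitters' processing notes name FastQC, Trimmomatic, DRAGEN, Picard and mm10, while whether counting used strand or molecular identifiers is not given in the sources used here.

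edgeR (4.0.16 in R 4.3.3) with filterByExpr, TMM and the quasi-likelihood test was fitted on all 17459 genes that passed the filter, with Benjamini-Hochberg adjustment and a threshold of 0.05, and was tested on simulated data. Standard errors were taken from the fold change and the F statistic. DESeq2 1.42.0, limma 3.58.1, other scalings and filters, thinning, and fits without each library were alternatives. Sums and shares were tested by two-sided exact permutation (SciPy 1.17.1), the shares for chains with a mean of at least 5%. The experiment number in the labels paired the libraries: same-numbered libraries deviated together (r = 0.37, 0.28 and 0.16 across genes), although AAV-CTRL 3 with AAV-VEGF-C 2 reached 0.22 and pair 3 was at -0.14 over the members alone, so blocked values are given where a call changes. Members were named by role, except 1 that is counted among them but not reported here by itself, with full values for called members and for the 5 of highest AAV-CTRL TPM in each family. In the other lists the called genes and the 3 of highest TPM were named, and Parva and Fermt2 were named after their values were seen. Members, roles and lists were chosen with earlier results of these data known. Positions and windows of 100 bases shared between transcripts came from GENCODE M21 (GRCm38), in which 34 of the 37 identifiers matched with their version and the others, Itga6, Lama2 and Lamb1, without it. Depth differences mean that counting error is larger in AAV-VEGF-C.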

Additional observations from a re-analysis of the deposited data

How the results depend on the processing

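The groups differ in depth without overlap, and no call held in every alternative, so depth and VEGF-C cannot be told apart here. Low counts limit the values of Itga2b, Itgax and Lamb3, and p-values measure the spread of 3 pools per group.

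Among integrin and laminin genes, the numbers higher and lower were 1 and 1 with edgeR as reported. The number higher was 2 under scaling on the 2000 most abundant genes, 3 without a filter, 3 with DESeq2, 4 with voom, and 0 with a TPM of 5 or more, with limma on log2(TPM + 0.1), after thinning and without experiment 1 (the last chosen after seeing the data), where 0, 2, 1 and 4 were higher at an unadjusted p under 0.05. The number lower was 6 without a filter, 4 with DESeq2, 4 with the replicate block and 2 with voom. It was 0 by edgeR with library size alone, with the 2000-gene scaling, with a TPM of 5 or more and after thinning, where 7, 1, 2 and 0 were lower at an unadjusted p under 0.05. The members' median of -0.23 became -1.06 with limma on log2(TPM + 0.1), where that of all genes was -1.04. Without single libraries, members called higher numbered 0 to 1, members called lower 0 and all genes 0 to 1771 higher and 0 to 48 lower, with 4 to 9 members lower at an unadjusted p under 0.05.

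For all genes, the number higher was 9382 without a filter, 9 with a TPM of 5 or more, 5586 with DESeq2, 1112 with limma on log2(TPM + 1) and 1 after thinning. The number lower was 53 with library size alone, 8 with the 2000-gene scaling, 1175 without a filter, 0 with a TPM of 5 or more, 481 with DESeq2, 434 with limma on log2(TPM + 1), 267 with voom, 0 after thinning and 362 with the replicate block.

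In the adhesion machinery list the number lower was 0 with DESeq2 size factors, library size alone, the 2000-gene scaling, a TPM of 5 or more, thinning, without experiment 1 and without any single library. It was 5 without a filter, 4 with DESeq2, 3 with limma on log2(TPM + 1), 2 with limma on log2(TPM + 0.1), 3 with voom and 2 with the replicate block. The number higher was 0 with a TPM of 5 or more, limma on log2(TPM + 1) and thinning, and 0 to 1 without single libraries. In the basement membrane list the number lower was 0 with library size alone, the 2000-gene scaling, a TPM of 5 or more, limma on log2(TPM + 0.1), thinning, without experiment 1 and without any single library, 5 without a filter and 2 with limma on log2(TPM + 1). The number higher was 1 without a filter, 1 with DESeq2 and 1 without experiment 1.

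Log2 fold changes of single genes changed sign as follows. With DESeq2 size factors Lama5 was 0.020 and Itga3 0.041. With the 2000-gene scaling Lama5 was 0.32, Itgb2 0.31 and Itga3 0.33. Without a filter Lamc3 was -0.079, Itga9 -0.080 and Itgb4 -0.035. With a TPM of 5 or more Itgb2 was 0.21 and Itga3 0.36. With limma on log2(TPM + 1) Lamc3 was -0.44, Itga9 -1.18, Itga7 -0.0061, Itgb3 -0.29, Itgb4 -0.21 and Lama1 -0.11. With limma on log2(TPM + 0.1) Lamc3 was -0.74, Itga9 -1.31, Itgb3 -0.50, Itgb4 -0.20, Itgb7 -0.039 and Lama1 -0.0015. With voom Lama5 was 0.41, Itga9 -0.063 and Itgb2 0.61. After thinning Lama5 was 0.69, Lama2 0.067, Itga3 0.075, Itgb8 0.066 and Itga5 0.30. With the replicate block Lama5 was 0.23 and Itgb2 0.15. Without experiment 1 Lamc3 was -0.39, Itga9 -0.058, Itgb3 -0.35 and Itgb4 -0.20. Without single libraries the range was -0.53 to 0.12 for Itga3, -0.12 to 0.34 for Itga9, -0.39 to 1.89 for Itgam, -0.81 to 1.32 for Itgb2, -0.25 to 0.80 for Itgb3, -0.16 to 0.58 for Itgb4, -0.51 to 0.69 for Lama5 and -0.20 to 0.45 for Lamc3.

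Shares as differences in percentage points changed sign when taken from counts for Itga3 (0.88), Itga5 (-0.70), Itga9 (3.59), Itgb5 (-2.69) and Lamc1 (1.496). Without single libraries they ranged from -2.92 to 0.50 for Itga3, -0.96 to 2.18 for Itga5, -4.96 to 0.64 for Itga6, -0.43 to 10.5 for Itgam, -0.56 to 7.13 for Itgb2, -2.64 to 3.27 for Itgb5, -0.085 to 1.72 for Lama4, -1.28 to 0.45 for Lamb1 and -1.29 to 0.70 for Lamc1. The mean number of members detected was 4 lower in AAV-VEGF-C (-4.0) at a minimum of 10 counts. The causes were not tested.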
